A study of Mus musculus with 4 samples.

Results

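The kinesin family was taken as the genes whose symbol starts with Kif and a digit, leaving out pseudogenes. That name pattern found 38 of the 20062 genes listed in each of 8 deposited tables. Of these, 36 encode kinesin motors. The other 2 rows were Kif1bp, which encodes a kinesin-binding protein and not a motor, and Kif16bos, an antisense RNA named for Kif16b. The motors were grouped by their known roles into 11 mitotic motors, 13 transport motors, 2 motors of the spindle and centriole and 9 motors of cilia, signalling or microtubule control, with Kif28 left as 1 other motor.

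The series held hematopoietic stem cells purified from the bone marrow of mice at steady state, 2 samples labelled old and 2 labelled young, all of the genotype Gfp-Lc3, a fluorescent reporter of autophagosomes whose promoter is not given in the labels. Per the labels' protocols, cells were profiled with droplets (10X Genomics) and in plates (SmartSeq2), while numeric ages, sex and any pooling of animals are not stated. The protocol names 1 droplet sample per condition and the design text 2 biological replicates of each. The 8 tables are the authors' own comparisons of clusters of cells: each of c1 to c7 against the cells outside it, and c1 against c2. They hold no sample, age or reporter level, so kinesins of old and young mice were not compared here.

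Kinesins are motor proteins that use ATP to act on microtubules. Mitotic kinesins slide, crosslink or depolymerise spindle microtubules, move chromosomes and build the midzone at which daughter cells part, and their genes are transcribed mainly late in the cell cycle. Transport kinesins carry vesicles, mitochondria, lysosomes and receptors along microtubules in cycling and resting cells alike. Adult hematopoietic stem cells are mostly quiescent, and their daughters divide as they commit to a lineage.

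Values are log2 fold changes from the authors' deposited tables unless named as rebuilt levels. A call means an authors' adjusted p under 0.05. Deposited fold changes were limited to -4 and 4, so a value at the limit stands for a difference of at least 16-fold. The tables give no standard error, cell number, depth or replicate, and do not say what was counted as a replicate in the p-values. Were that each cell, calls would speak for the sequenced cells, not for mice. The clusters were drawn by the authors, and if the same transcripts defined them, the kinesins that separate a cluster helped to define it. Counts of called members are therefore descriptions. The 7 comparisons with the rest share cells with each other and with c1 against c2, so they do not support one another.

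The clusters differed in their fixed marker genes. All 4 mitosis markers were at the upper limit of 4 in c4 in the authors' deposited table, and all 4 DNA replication markers were higher in both c3 and c4. All 4 erythroid markers (median 2.17) and 3 of 3 megakaryocyte markers (median 0.69) were higher in c3 in the authors' deposited table. In c4, 3 of 4 erythroid markers (median 0.97) and 3 of 3 megakaryocyte markers (median 0.93) were higher in the authors' deposited table. Their part in the kinesin values of c3 and c4 was not tested. Stem cell markers were higher for 3 of 4 in c1 and for 3 of 4 in c2. Late granulocyte markers were at 4 in c5 and c6 for 4 of 4, early granulocyte markers at 4 in c5 for 3 of 4, and B-lineage markers at 4 in c7 for 4 of 5, in the authors' deposited tables. The median log2 fold change of the 10027 genes in the upper part of the tables, those with a mean expression at or above the median (called expressed genes here), was -0.12 in c1, -0.00 in c2, 0.07 in c3, 0.19 in c4, -0.24 in c5, -2.24 in c6 and -0.92 in c7, and -0.07 for c1 against c2, in the authors' deposited tables. Low values in c6 and c7 are thus common to most genes: 11373 of 20062 genes were at -4 in c6 and 11131 in c7.

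**Figure D1:**
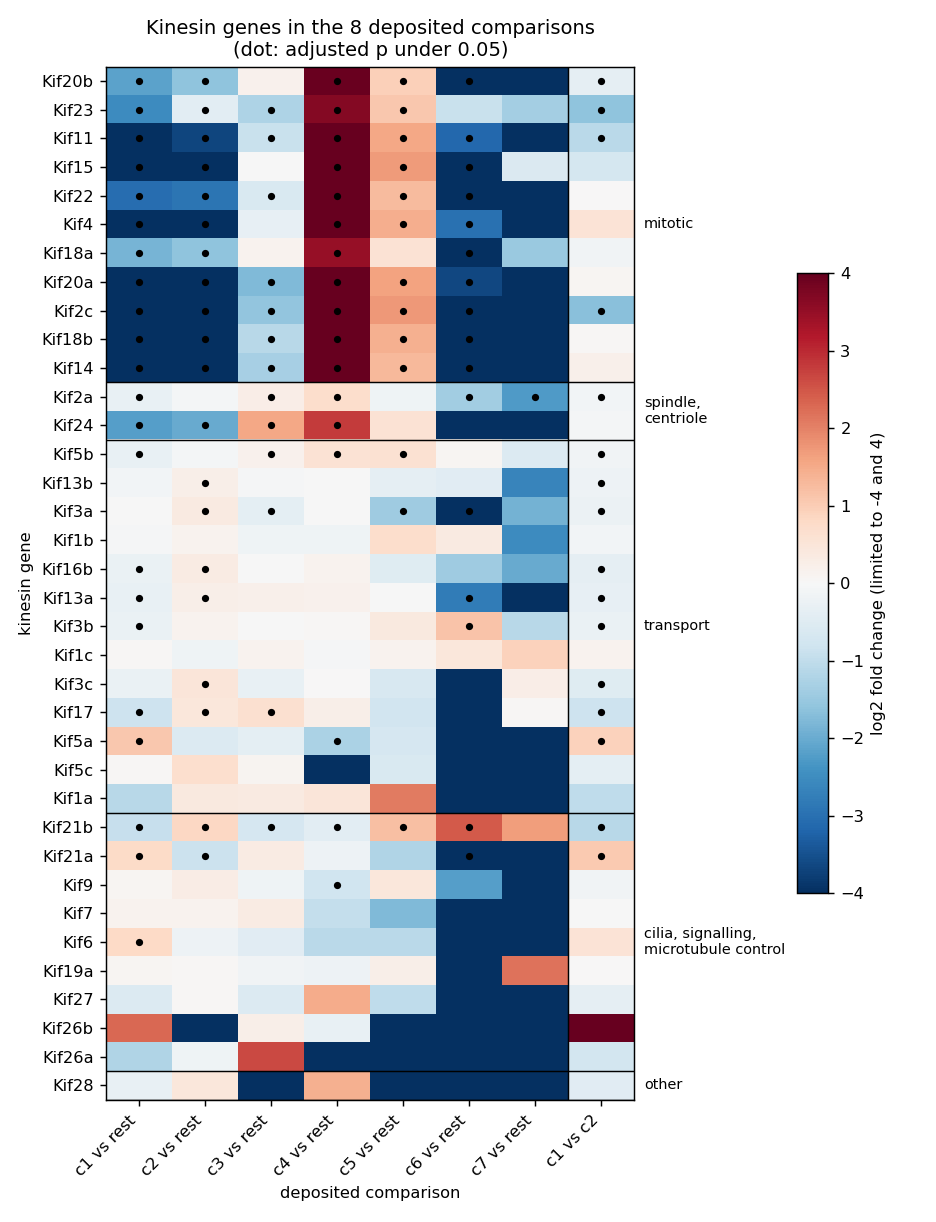
Log2 fold changes of the 36 kinesin motor genes (down the page, by role and then by mean expression) in the 8 deposited comparisons (across); red is higher and blue lower in the named cluster, and a dot marks an authors' adjusted p under 0.05. The 11 mitotic genes are red in c4 and blue in c1, c2 and c6, while the 7 expressed transport genes, Kif5b to Kif3b, lie between -0.38 and 0.59 in c1 to c4.

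The DNA around the transcript starts of the members was examined in RefSeq promoters on GRCm38.p6. These run from 250 bases before to 50 after a transcript start. The cell cycle homology region (CHR; TTTGAA or TTCGAA, on either strand) is a short element known from genes repressed in resting cells. It was present in the promoters of 9 of 10 mitotic members with an entry, against 1 of 10 transport members (Kif1a). Of all 27025 genes with an entry, 21.7% held it. The CHR started within 20 bases of the start for 7 of 10 mitotic members, against 0 of 10 transport members and 2.75% of all genes, a window chosen after the positions were seen. Kif18a was the mitotic member without one in its window. Bases are counted from the start, with -1 just before it and 1 at it. The CHR began at -19 in Kif11 and Kif15, at -17 in Kif22, at 3 in Kif23, at 4 in Kif18b, at 8 and 14 in Kif20b and at 20 in Kif4. It lay further out in Kif2c (-103) and Kif14 (-228). A CCAAT box (CCAAT, on either strand, often paired with a CHR, with which it can share bases) was present in 6 of 10 mitotic members, 3 of 10 transport members and 41.1% of all genes, and both motifs were present in 6 of 10, 0 of 10 and 8.61%. E2F letters (TTCCCGC on either strand, and likewise TTGGCGC, also TTCGCGC, and as a last form TTGCCGC) were present in 2 of 10 mitotic members, 1 of 10 transport members and 10.9% of all genes. Sp1 letters (GGGCGG on either strand, which can overlap an E2F match) were present in 6 of 10, 8 of 10 and 38.2%. These matches describe letters, not bound sites. For the windows with the CHR of Kif2c, Kif14, Kif4 and Kif1a, the 150 bases before the start fell wholly inside the annotated gene. Those windows may therefore not be the main promoters, but their matches are in the counts above. Kif14 and Kif4 are also in the count of both motifs. Outside the mitotic and transport groups, Kif24 (-26), Kif26b (-9) and Kif27 (-191, -89 and -73) held a CHR, each with a CCAAT box. The 150 bases of Kif27 also fell wholly inside its annotated gene.

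The 150 bases just before the start are shown for the 3 mitotic genes whose CHR falls there, close to the start, and for the transport gene Kif3a, which holds none. The annotated genes of Kif15 and Kif22 begin within the printed bases, at 122951046 and 127042471. Their printed CHR therefore lies inside the annotated gene. Capitals mark each CHR (here read as TTCAAA on the printed strand) and CCAAT box (here ATTGG).
Kif11 (chr19:37376232-37376381, plus strand): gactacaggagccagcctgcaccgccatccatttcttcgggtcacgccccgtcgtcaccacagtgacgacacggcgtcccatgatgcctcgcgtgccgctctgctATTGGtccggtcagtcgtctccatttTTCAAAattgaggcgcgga
Kif15 (chr9:122950931-122951080, plus strand): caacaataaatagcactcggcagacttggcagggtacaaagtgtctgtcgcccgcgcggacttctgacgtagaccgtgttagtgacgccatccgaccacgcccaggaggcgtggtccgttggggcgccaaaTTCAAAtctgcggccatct
Kif22 (chr7:127042421-127042570, minus strand): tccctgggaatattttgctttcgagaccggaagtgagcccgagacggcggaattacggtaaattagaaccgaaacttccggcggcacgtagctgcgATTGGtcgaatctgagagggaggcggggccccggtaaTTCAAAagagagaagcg
Kif3a (chr11:53567219-53567368, plus strand): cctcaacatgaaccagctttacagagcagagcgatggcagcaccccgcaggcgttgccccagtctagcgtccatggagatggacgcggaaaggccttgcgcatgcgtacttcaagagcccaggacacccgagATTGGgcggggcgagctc
Kif11 and Kif22 carry an inverted CCAAT box followed by an inverted CHR, Kif15 the CHR alone, and Kif3a an inverted CCAAT box alone.

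In c4, all 11 mitotic motors were higher in the authors' deposited table, where 24.3% of all genes were called higher and 10.6% lower. Of these, 8 were at the upper limit of 4: Kif11, the tetramer that slides spindle poles apart; Kif15, which can share that task; the chromokinesins Kif4 and Kif22, which bind chromosome arms; Kif2c, which depolymerises microtubules at kinetochores; Kif14 and Kif20a, which act in cytokinesis; and Kif18b, which acts on astral microtubules. The other members of the authors' deposited table stood just under that limit. Kif20b, a midzone motor, was at 3.95, and Kif23, the motor subunit of centralspindlin, at 3.66. Kif18a, which dampens chromosome movements at the metaphase plate, was at 3.49.

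To see past the limit, the level of each gene in each cluster was rebuilt relative to its mean over all cells, from the 7 fold changes and an estimated share of cells per cluster (10.3% for c4). This assumes that each deposited fold change is a ratio of mean normalised expression between a cluster and the cells outside it. Such a relative level compares clusters within 1 gene and never 2 genes. Kif11 stood at 7.95 times its overall mean in c4, against 0.05 in c1, 0.11 in c2, 0.58 in c3 and 2.83 in c5. That is a rebuilt difference of 39.8-fold between c4 and the other cells. The level of Kif11 in c4, where it is at the limit, was taken as what the other clusters left of its total. An error in those parts moves this fold more than it moves the level. For Kif2c the rebuilt level in c4 was between 8.33 and 8.75, against at most 0.03 in c1, at most 0.09 in c2, 0.36 in c3 and 3.18 in c5. Kif23 was at 5.74 in c4, against 0.26 in c1, 0.82 in c2, 0.46 in c3 and 2.06 in c5. Kif20b was at 6.20 in c4, against 0.33 in c1, 0.43 in c2, 1.11 in c3 and 1.90 in c5. In all 11 mitotic genes c4 ranked first and c5 second, and how many of all genes rank so was not computed. Over the 11 genes the levels ran from 5.47 to 8.83 in c4 and from 1.50 to 3.18 in c5.

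The level times the share of cells gives a share of each gene's summed normalised expression, which is not a count of transcripts, since depth per cell is unknown. On this scale c4 held 56.5% for Kif18a, 59.2% for Kif23, 64.0% for Kif20b, 73.6 to 73.7% for Kif22 and 82.1% for Kif11. For Kif2c the share was 85.9 to 90.3%, and for Kif20a 84.1 to 91.1%. The parts of a gene should sum to 100%, and they summed to 109% for Kif20b, 107% for Kif23 and 102% for Kif18a, so the rebuilt values of strongly skewed genes carry an error of that order. Among the 7 expressed transport motors the share in c4 ran from 9.31% for Kif1b to 14.8% for Kif5b, beside 10.3% of cells.

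**Figure D2:**
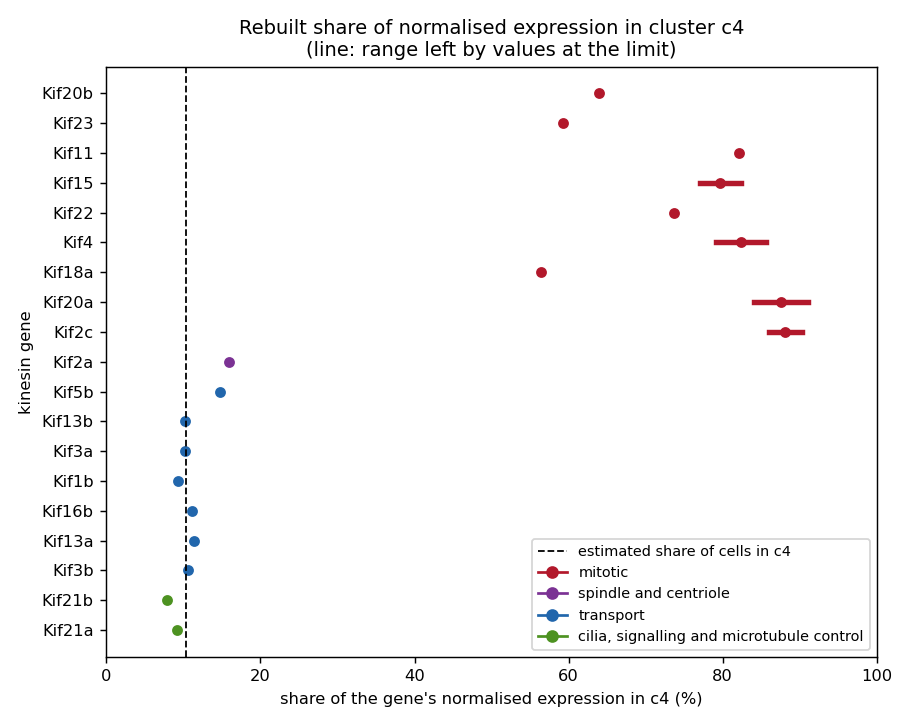
Rebuilt share of each gene's summed normalised expression that lay in c4 (horizontal axis, %) for the 19 expressed kinesin motors; a horizontal line spans the values left possible by fold changes at the limit, and the dashed line is the estimated share of cells in c4. Mitotic motors lie between 56.5 and 91.1%, and the 7 transport motors between 9.31 and 14.8%.

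The mitotic motors were below their overall mean in c1 and c2, with rebuilt levels of at most 0.39 in c1 and 0.82 in c2. These clusters were estimated at 40.7% and 33.7% of cells. Together they held from at most 4.24% (Kif2c) to 38.3% (Kif23) of a mitotic gene's summed normalised expression. All 11 mitotic motors were lower in c1, where 29.7% of all genes were called lower and 13.3% higher, and all 11 were lower in c2, where the shares were 21.4% and 15.9%. Of the 11, 7 were at -4 in c1 and 6 at -4 in c2 in the authors' deposited tables. The smallest differences in the authors' deposited table of c1 were -1.87 for Kif18a and -2.14 for Kif20b. Kif23 departed from the rest in c2: it was at -0.41 there, against -1.60 for Kif20b, the next of the 11, in the authors' deposited table. The rebuilt level of Kif23 in c2 (0.82) was above its level in c3 (0.46). In the other 10 mitotic genes c3 was above both c1 and c2.

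Clusters c1 and c2 were also set directly against each other. Of the 11, 4 were lower in c1 and none higher, where 22.0% of all genes were called lower and 15.4% higher. Among expressed genes 37.2% were called lower, so this count is near the background. The 4 were Kif2c at -1.67, Kif23 at -1.61, Kif11 at -1.07 and Kif20b at -0.36 in the authors' deposited table. The other 7 ran from -0.72 for Kif15 to 0.55 for Kif4 in the authors' deposited table and were not called. All 4 mitosis markers were lower in c1 than in c2 (median -0.89), all 4 early granulocyte markers were higher (median 1.90) and 2 of 3 megakaryocyte markers were higher (median 0.26), in the authors' deposited table, and their part in the kinesin values of this comparison was not tested. Kif15 and Kif4 were both at -4 in c1 and in c2 alike in the authors' deposited tables.

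Cluster c3, which like c4 carried the DNA replication markers, divided the mitotic motors. The mitosis markers were also mixed in c3, with 2 of 4 higher and 1 lower (median 0.62) in the authors' deposited table. Their part in the kinesin values was not tested. Of the 11, 7 were lower and none higher, where 10.2% of all genes were called lower and 18.1% higher. The lowest in the authors' deposited table were Kif20a at -1.78, Kif2c at -1.58, Kif14 at -1.33, Kif23 at -1.23 and Kif18b at -1.10, followed by Kif11 at -0.88 and Kif22 at -0.60. Kif20b at 0.17, Kif18a at 0.14, Kif15 at -0.01 and Kif4 at -0.33 in the authors' deposited table were not called. The cells outside c3 include those of c4. On the scale of rebuilt levels, c3 stood at 0.32 for Kif20a and 0.36 for Kif2c, against 0.99 for Kif15, 1.09 for Kif18a and 1.11 for Kif20b.

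**Figure D3:**
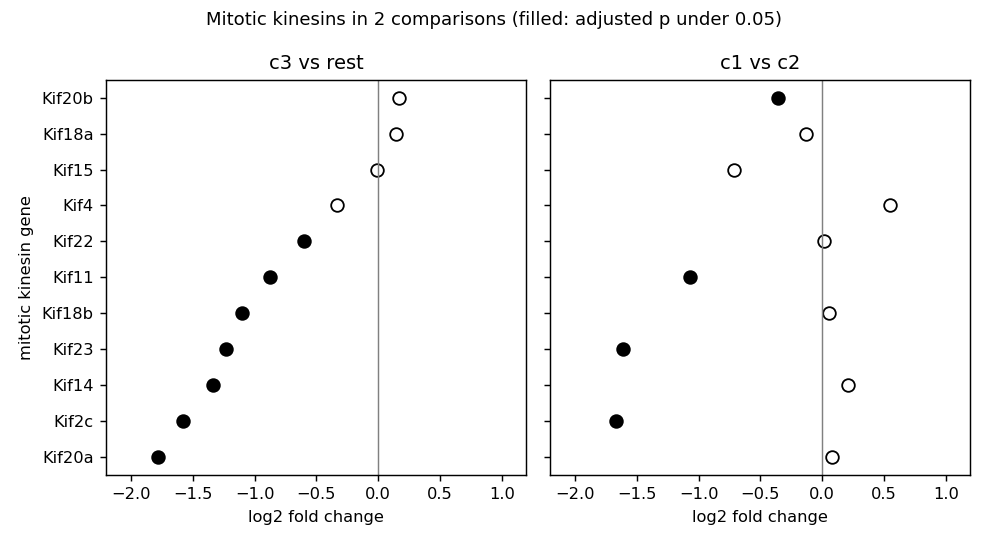
Log2 fold changes of the 11 mitotic kinesins (vertical axis, ordered by the left panel) for c3 against the rest (left) and c1 against c2 (right); filled points have an authors' adjusted p under 0.05. In c3 the genes run from -1.78 for Kif20a to 0.17 for Kif20b, and in c1 against c2 the 4 called genes are all lower in c1.

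Of the mitotic motors 10 of 11 were higher in c5, where 7.17% of all genes were called higher and 9.30% lower. Kif2c at 1.72, Kif15 at 1.71, Kif20a at 1.61 and Kif11 at 1.55 led in the authors' deposited table, and Kif18a at 0.59 was not called. In c6, 10 of 11 were lower, where 35.7% of all genes were called lower and 5.20% higher. Among expressed genes 6920 of 10027 were called lower there, beside 8 of the 9 expressed mitotic motors. Of the 11, 7 stood at -4 in c6 in the authors' deposited table. Kif23 at -0.89 in c6 was the member not called there in the authors' deposited table. No mitotic motor was called in c7, where 5.16% of all genes were called lower and 1.02% higher, and 8 of 11 were at -4 in the authors' deposited table. Cluster c7 was estimated at 0.347% of cells, and none of the kinesin values at the limit there was called. The 4 mitosis markers were also higher in c5, beside the granulocyte markers, whose part in these values was not tested.

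Of 5 motors outside the name pattern, 3 were higher in c4, and of 12 partners of the mitotic kinesins all were, beside 24.3% of all genes and 44.2% of expressed genes. Cenpe, the kinetochore motor that moves chromosomes to the spindle equator, was at 4 in c4 and -0.52 in c3 in the authors' deposited tables. Kifc1, a minus-end motor that focuses spindle poles, was at 4 in c4 in the authors' deposited table, and its near-identical copy Kifc5b at 3.55, so that reads of the pair may be shared. Kifc3 and Kifc2 were not called in c4, and Kifc3, at 1.52, was the list's 1 called gene for c1 against c2 in the authors' deposited table. All 12 mitotic partners were at 4 in c4 in the authors' deposited table, among them Racgap1, the other subunit of centralspindlin, Prc1, which recruits Kif4 to the midzone, and Tpx2, a spindle assembly factor. For c1 against c2, 5 of these 12 were lower and none higher, beside 22.0% lower and 15.4% higher among all genes. All 12 are expressed genes, of which 37.2% were called lower there, so this count is near the background. The 5 were led by Ect2, the RhoA activator bound by centralspindlin, at -1.27, then Aurkb at -0.85, Tpx2 at -0.69 and Prc1 at -0.63 in the authors' deposited table.

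Between the mitotic and transport sets stood Kif2a and Kif24. Kif2a, a microtubule depolymerase used at spindle poles and in resting cells, was at 0.72 in c4 and 0.27 in c3, against -0.29 in c1, and each was called in the authors' deposited tables. It was also lower in c6, at -1.39, and was the 1 kinesin called in c7, at -2.27 in the authors' deposited table. Its value in c6 was 0.85 once centred on the median of expressed genes, so Kif2a fell there less than the median gene. Kif24, which acts at centrioles to restrain cilia, was the kinesin with the highest called value in c3, at 1.55, and stood at 2.80 in c4 in the authors' deposited tables. The rebuilt level of Kif24 was 2.37 in c3 and 4.31 in c4, against 0.32 in c1 and 0.33 in c2. Kif24 was below the median mean expression.

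Of the 13 transport motors, 7 were expressed by that rule. Of these, 6 lay between 0.75 and 1.25 times their overall mean in c1 to c4, and Kif5b reached 1.43 in c4. Their rebuilt levels lay between 0.88 and 0.99 in c1, 0.96 and 1.18 in c2, 0.79 and 1.13 in c3 and 0.90 and 1.43 in c4. In c4, 1 of 13 was higher and 1 lower, beside 24.3% higher and 10.6% lower among all genes. The higher one was Kif5b, the ubiquitous conventional kinesin heavy chain that carries mitochondria and lysosomes, at 0.59, and the lower one Kif5a, its relative best known from neurons, at -1.27 in the authors' deposited table (authors' adjusted p 0.0226). The median over the 13 was 0.01 in c4, against 4.00 for the mitotic set and 0.01 for all genes, in the authors' deposited table. Kif3a, Kif3b, Kif1b, Kif1c, Kif13a, Kif13b, Kif16b, Kif3c and Kif17 lay between -0.16 and 0.22 in c4 in the authors' deposited table, and none was called. The neuronal motors Kif1a and Kif5c, both below the median mean expression, were called in no table, although Kif5c was at -4 in c4 in the authors' deposited table.

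Several transport motors were higher in c2 than in the pooled cells outside it. Of the 13, 6 were higher and none lower in c2, where 15.9% of all genes and 27.1% of expressed genes were called higher and 21.4% of all genes lower. In the authors' deposited table these were Kif3c at 0.50, Kif17 at 0.45, Kif3a at 0.37, Kif16b at 0.32, Kif13a at 0.22 and Kif13b at 0.22. For Kif17 the rebuilt level was higher in c3 (1.46) than in c2 (1.22), and for Kif13a it was 1.10 in c2, 1.13 in c3 and 1.11 in c4. Kif3a is a subunit of kinesin-2, which serves cilia and vesicle traffic; Kif16b moves endosomes, and Kif13a and Kif13b carry endosomal and membrane cargo. In c1, 5 were lower and 1 higher: Kif17 at -0.82, Kif5b at -0.30, Kif13a at -0.29, Kif16b at -0.27 and Kif3b at -0.26, against 1.08 for Kif5a in the authors' deposited table. The fold changes are small, and 29.7% of all genes were called lower in c1.

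Of the 13, 8 were lower in c1 than in c2 and 1 higher, in a comparison that shares its cells with the tables of c1 and of c2 and in which 22.0% of all genes were called lower and 15.4% higher. The values in the authors' deposited table were -0.83 for Kif17, -0.47 for Kif3c, -0.37 for Kif16b, -0.32 for Kif13a, -0.26 for Kif3b, -0.25 for Kif3a, -0.21 for Kif13b and -0.13 for Kif5b, against 0.92 for Kif5a. Among the 7 expressed ones, 6 were lower, beside 37.2% of all expressed genes. Kif1b, a carrier of mitochondria and vesicles, was at -0.12 and not called in the authors' deposited table, and neither it nor Kif1c was called in any table.

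Some related genes had opposite values. Kif21a and Kif21b are paralogs that pause microtubule growth. Kif21a was at 0.77 in c1 and -0.86 in c2, whereas Kif21b was at -0.91 in c1 and 0.83 in c2, all called in the authors' deposited tables. For c1 against c2, Kif21a was at 1.03 and Kif21b at -1.11 in the authors' deposited table, both called. In c6, where most genes were low, Kif21b was at 2.45 and Kif21a at -4 in the authors' deposited table. Kif21b was also at 1.21 in c5, against -0.67 in c3 and -0.42 in c4 in the authors' deposited tables (authors' adjusted p 0.0432 in c4). In rebuilt levels Kif21b ran from 0.66 in c1 and c3 to 5.23 in c6, and Kif21a from at most 0.06 in c6 to 1.32 in c1.

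Kif3a and Kif3b encode the heterodimer of kinesin-2. They were at -0.25 and -0.26 for c1 against c2 in the authors' deposited table. In c6, however, Kif3b was at 1.15 (authors' adjusted p 0.0271) and Kif3a at -4, both called in the authors' deposited table. In c5 Kif3a was at -1.44 and Kif3b at 0.38, the second not called, in the authors' deposited table. Kifap3, the accessory subunit of this motor, was at -0.92 in c5 and -4 in c6 in the authors' deposited tables, on the side of Kif3a. Kif5b was called higher in c5 at 0.62 in the authors' deposited table and was at 0.08, not called, in c6, where its rebuilt level was 1.05. The opposed signs of Kif5a and Kif5b are also seen in c1, c4 and c1 against c2.

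**Figure D4:**
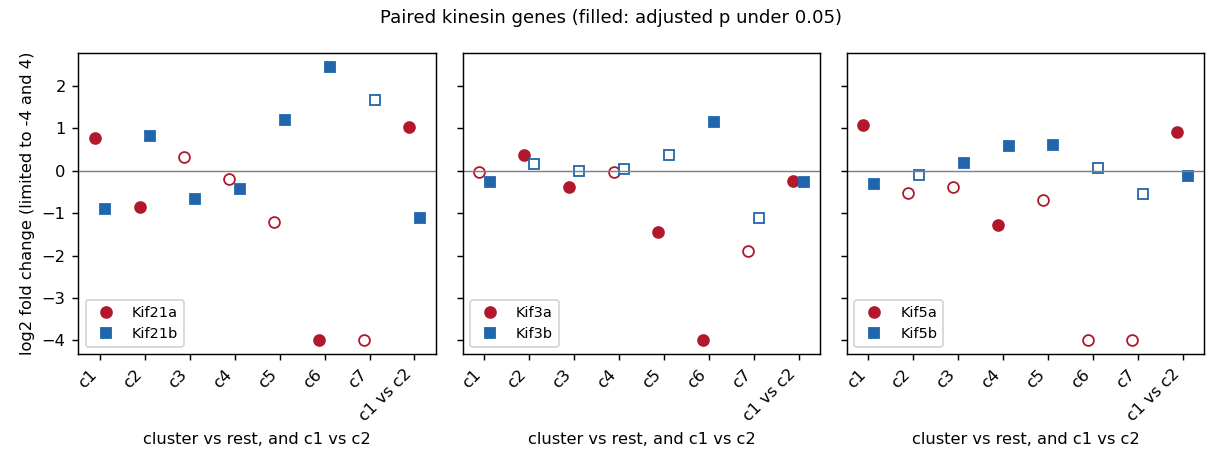
Log2 fold changes of 3 pairs of related kinesins (one panel each) in the 7 comparisons with the rest and in c1 against c2; filled points have an authors' adjusted p under 0.05. Kif21a and Kif21b have opposite signs in every comparison shown except c4, and Kif3a and Kif3b part in c5 and c6.

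Other motors of cilia and signalling were mostly weak. Kif6 was at 0.79 in c1 and Kif9, a motor of motile cilia, at -0.81 in c4 in the authors' deposited tables, the second with an authors' adjusted p of 0.0497. Kif7, a regulator of Hedgehog signalling in the primary cilium, was at -0.95 in c4 in the authors' deposited table and not called. Of the 38 rows, 18 were below the median mean expression, and 8 of these were called in at least 1 table. The 11 rows called in none were Kif1a, Kif1b, Kif1c, Kif5c, Kif7, Kif19a, Kif26a, Kif26b, Kif27, Kif28 and Kif16bos. Kif1bp was called in c6 alone, at -2.76 in the authors' deposited table.

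Adaptors link transport kinesins to cargo. Of 15 light chain and cargo adaptor genes, 5 were higher and 1 lower in c2, and 2 higher and 5 lower for c1 against c2. Among all genes, 15.9% were called higher and 21.4% lower in c2, and 15.4% higher and 22.0% lower for c1 against c2, where 37.2% of expressed genes were lower, so these counts are near the background. Between c1 and c2, Klc3, a light chain, was at 0.56 in the authors' deposited table, and the scaffold Mapk8ip1 at 0.48, against -0.48 for Trak2, which links conventional kinesin to mitochondria, and -0.46 for the light chain Klc4. In c4, 5 were higher and 3 lower, beside 24.3% and 10.6% of all genes, with Klc3 at -1.23 and Klc4 at -0.78, against 0.63 for Rhot2, a mitochondrial kinesin receptor, in the authors' deposited table, and the lysosomal kinesin adaptor gene Arl8a at -0.60, against 0.59 for Arl8b.

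Some counts could hold reads of other genes. On GRCm38 (GENCODE M21), Kif18a overlaps Mettl15, Kif4 overlaps Pdzd11, Kif2a overlaps Dimt1, Kif20a overlaps Cdc23 and Kif7 overlaps Ticrr on opposite strands, and whether the authors counted by strand is not given. Kif17 overlaps Sh2d5 and Kif28 overlaps Ahctf1 on the same strand, which counting by strand would not separate. Other overlaps were with predicted, clone-named or small RNA genes. Kif22 and Kif4 have pseudogene copies, Kif22-ps and Kif4-ps, which are not rows of the tables. Kif11 lies on chromosome 19 from 37376403 to 37421859 (plus strand), Kif23 on chromosome 9 from 61915905 to 61946774 (minus), Kif21a on chromosome 15 from 90933276 to 91049948 (minus) and Kif21b on chromosome 1 from 136131389 to 136177998 (plus).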

How the data were processed

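Samples carry the labels old (2) and young (2), but the files used here are 8 tables of cluster comparisons with no sample columns. GRCm38.p4, GSNAP, HTSeq and Scanpy are named, without roles, per the submitters' processing notes. The sources used here do not give the assay behind the tables, the clustering, cell filters, doublet handling or the test. Per the file headers each table holds a log mean, a log fold change, p-values and adjusted p-values. The deposited means are log2 values, since 2 raised to them summed to 10000, and the authors' deposited log2 fold changes are limited to -4 and 4. The authors' adjusted p-values equal a Benjamini-Hochberg adjustment of their p-values over 20062 genes to within 4.44e-15. A spreadsheet error replaced the mean of 8 genes.

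No new test was made, and depth per cell is unknown. Shares of cells per cluster were fitted by least squares so that each gene's cluster parts sum to 1 (SciPy 1.17.1, Python 3.11.15). The fit used 990 genes of log2 mean -5 to -3 with no value at the limit. It was tested on data simulated under that same rule, which did not test the rebuilt levels or their bounds. Rebuilt levels gave c1 against c2 within 0.0314 (log2) of the deposited value for the 30 members with no limit value in c1, c2 or that comparison. Values at a limit were kept as bounds. Named genes were the members at or above the median mean expression, other called members, and up to 4 called genes per related list of largest change in c4 and in c1 against c2; other related genes were chosen after their values were seen. Members and lists were chosen with earlier results of these data known. RefSeq promoters were matched by symbol, Kif1bp as Kifbp, and genes of chromosome 18 were left out of that search. Printed sequences are promoters in place of the planned proteins.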

Additional observations from a re-analysis of the deposited data

How the results depend on the processing

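The tables give no cell numbers or depth, so no value here has an interval, and values in c6 and c7 rest on few cells. No paired analysis was possible because the tables hold no samples, and for the same reason no replicate could be left out. Counts are members called, and a count or median was taken as moved where it changed by over 1.5 times. With an adjusted p under 0.01, 2 of 4 members remained higher in c3, 1 of 2 higher in c6, and 0 lower in c4 and in c7. With a log2 fold change of at least 1, the counts were 1 higher and 12 lower in c1, 0 higher in c2, 1 higher and 5 lower in c3, 1 lower in c4, and 1 higher and 4 lower for c1 against c2. Among members at or above the median mean expression they were 1 higher in c1, 2 higher in c3, 1 lower in c4 and 1 higher for c1 against c2. With the adjustment recomputed over such genes they were 1 higher in c1, 1 lower in c4, 2 lower in c5, 2 lower in c7 and 1 higher for c1 against c2.

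The mitotic minus transport median was -2.07 in c1, -1.83 in c2, -3.14 in c6 and -0.23 in c7 without values at the limit, -3.56 in c6 among members at or above the median, and -1.26 in c7 by means. For c1 against c2 it was 0.13 and reversed to -0.17 by means and -0.11 among members at or above the median. Centring on expressed genes turned 1 called value, Kif2a in c6, to 0.85. Leaving out Kif1bp, or both rows that encode no motor (chosen after seeing the data), counting Kif2a and Kif24 as mitotic or Kif21a and Kif21b as transport motors, rebuilding c1 against c2 from the separate tables, the other range for shares and the shorter promoter window left the values on the same side. Thresholds, the adjustment and Kif1bp do not enter the medians.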

Other observations

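The track and the opposing motor of the kinesins were also measured. Tubulin genes, which encode the microtubule itself, were higher in c4 for 9 of 14 and lower for none (median 1.57), beside 24.3% higher and 10.6% lower among all genes and 44.2% higher among expressed genes, with Tuba1b at 2.71, Tuba1c at 2.70, Tuba8 at 2.42 and Tubb5 at 2.40 in the authors' deposited table. In addition, 6 of the 14 were also higher in c3 (18.1% of all genes), led by Tuba1b at 1.52 and Tubg1, the nucleating gamma-tubulin, at 1.46 in the authors' deposited table. Between c1 and c2, 5 tubulin genes were higher in c1 and 2 lower, beside 15.4% higher and 22.0% lower among all genes, with Tuba8 at 1.73, Tuba1c at 0.56 and Tubb4b at 0.50, against -0.36 for Tuba1a, in the authors' deposited table.

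Dynein and dynactin genes, which encode the motor that runs towards the opposite end of the microtubule, were higher in c4 for 14 of 23 and lower for 1, beside 24.3% of all genes and 44.2% of expressed genes higher (median 0.22, beside 0.19 for expressed genes). The largest in the authors' deposited table of c4 were the dynein regulator Nde1 at 2.27, the light chain Dynll1 at 1.22, the adaptor Bicd2 at 0.99 and the dynactin subunit Dctn1 at 0.49. Between c1 and c2, 4 were higher in c1 and 9 lower, near the 37.2% of expressed genes called lower, with Dync1i1 at 0.84, against -0.44 for Dync1li2, -0.41 for Dctn5 and -0.33 for Dctn1, in the authors' deposited table.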
